A study of Mus musculus with 8 samples.

Results

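The 8 genes described here, Nr3c1, Fkbp5, Tsc22d3, Sgk1, Errfi1, Cdkn1a, Klf9 and Zbtb16, are the glucocorticoid receptor and genes that respond to it, taken out of the 27998 genes counted in single cells of the mouse heart. They were chosen by symbol, with earlier results on the same comparison known, so their differences between the libraries are a description without a test. The question was whether they change together, in every cell class, between hearts after sham surgery and hearts after ischemia–reperfusion (IR), since surgical stress raises the level of the hormone in the blood. Hormone levels were not measured.

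The mice were male and 10 to 12 weeks old, and both groups had chest surgery under isoflurane. In the IR group the left coronary artery was tied for 30 min and then released, whereas the sham group had the same operation with no tie. Left ventricles of 3 hearts were pooled for a sample, digested at 37 °C and run on a 10× Genomics droplet system, in which each captured RNA molecule is counted through a unique molecular identifier (UMI). The 4 samples listed for each time share 1 matrix whose barcodes name no sample, so each condition was 1 library with no replicate.

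The titles give the libraries as 0 h and 6 h. The 0 h library is called sham here and the 6 h library IR, because the methods describe tissue taken 6 h after either operation. Whether 0 h stands for hearts 6 h after sham surgery is not settled by the labels, so time after surgery, time of day and ischemia cannot be told apart. The sham library held 58653308 UMIs in 11620 barcodes (median 4599.5 UMIs) and the IR library 75033226 UMIs in 8539 barcodes (median 6244 UMIs). The libraries shared 30 barcode sequences, none with the same counts, and 11377 and 8260 cells passed the filter of at least 200 genes and at most 30% mitochondrial UMIs.

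Glucocorticoids enter cells and bind a receptor that chaperones hold ready in the cytoplasm. The bound receptor moves to the nucleus, where it activates genes through short palindromic DNA elements and restrains inflammatory genes driven by NF-κB and AP-1. Fkbp5 and Tsc22d3 are among its most widely used target genes, and cardiac muscle, stromal and immune cells all carry the receptor.

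Cells were clustered without using the 8 genes, and clusters were named with "-like" from UMIs of marker genes. Of the 12 named classes, 10 had at least 50 cells in each library. They were fibroblast-like cells (3492 in sham and 1708 in IR), macrophage-like cells (3267 and 1022), neutrophil-like cells (249 and 2450), B cell-like cells (1141 and 749), monocyte-like cells (502 and 1234), mural-like cells (838 and 205), T cell-like cells (414 and 282), endothelial-like cells (424 and 134), NK cell-like cells (289 and 85) and dendritic-like cells (86 and 86). The median number of UMIs per cell was higher in IR in each of these classes, for example 5207 against 13738.5 in fibroblast-like cells. Cardiomyocyte-like cells (40 and 51) and Schwann-like cells (54 and 16) were too few to compare. Levels are UMIs of a gene summed over a class and scaled to 1000000 UMIs of that class (CPM). Intervals are exact 95% intervals that cover counting error only.

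A gene was counted as higher or lower where the IR to sham ratio reached 2-fold with at least 20 UMIs over both libraries, and the same count over all genes gives the background. Of the 80 gene and class pairs, 76 had enough UMIs, of which 19 were higher in IR, 7 were lower and 50 were neither. Over all genes in the same classes, 9.02% of the pairs with enough UMIs were higher and 11.9% were lower. The 8 genes did not move as a group. Fkbp5 had an interval above zero in 9 of the 10 classes and was past 2-fold in 8. Tsc22d3 had an interval below zero in 9 of the 10 classes and was past 2-fold downward in 3. The other genes differed in direction or size between classes.

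**Figure D1:**
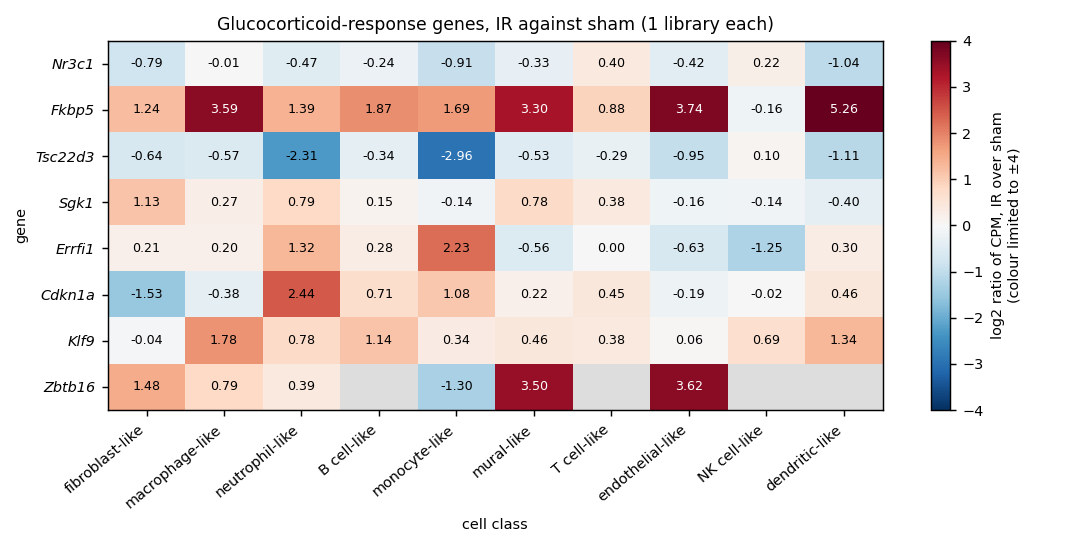
Log2 ratio of CPM in IR over sham for each of the 8 genes (vertical axis) in each cell class (horizontal axis), with 1 library for each condition and grey where the gene had under 20 UMIs. The Fkbp5 line is red in every class but NK cell-like cells, the Tsc22d3 line is blue in every class but NK cell-like cells, and the lines of Errfi1 and Cdkn1a hold both colours.

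The count of the 8 genes past 2-fold in each class is given beside the share over all genes. With so few genes, a share below that of all genes cannot be seen. In fibroblast-like cells 3 of the 8 were higher and 1 was lower, against 11.5% and 16.4% of 13134 genes. Among macrophage-like cells 2 of 8 were higher and 0 lower, where all genes gave 10.1% and 8.53%. Neutrophil-like cells had 3 of 8 higher and 1 lower, against 12.6% and 20.6%. For monocyte-like cells the counts were 3 higher and 2 lower of 8, against 8.62% and 22.3%. Dendritic-like cells had 2 higher and 2 lower of 7, against 9.89% and 6.77%.

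Mural-like cells had 2 of 8 higher and 0 lower, against 7.4% and 9.53% of all genes. Endothelial-like cells also had 2 of 8 higher and 0 lower, against 6.48% and 11.5%. In B cell-like cells 2 of 7 were higher and 0 lower, against 5.23% and 4.52%. The classes with the fewest such genes were T cell-like cells, with 0 of 7 in either direction against 6.11% and 3.89%, and NK cell-like cells, with 0 of 7 higher and 1 lower against 11.9% and 10.1%. The median log2 ratio over all genes lay between -0.33 in monocyte-like cells and 0.14 in NK cell-like cells.

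Nr3c1, which encodes the glucocorticoid receptor, was detected in all 10 classes of both libraries, at 59.1 to 154 CPM in sham and 47.6 to 114 CPM in IR. Its interval lay below zero in 6 classes and above zero in 0, and the median log2 ratio over classes was -0.38. The level was 154 CPM in sham and 89.2 CPM in IR in fibroblast-like cells, 96.1 and 51.1 CPM in monocyte-like cells, and 97.5 and 47.6 CPM in dendritic-like cells, the only class past 2-fold (log2 ratio -1.04, 95% interval -1.54 to -0.54). In macrophage-like cells the levels were 107 and 106 CPM, with a log2 ratio of -0.01 (-0.11 to 0.10). The receptor transcript was thus past 2-fold upward in 0 classes in this main setting. With each cell thinned to 1000 UMIs it was past 2-fold upward in NK cell-like cells (log2 ratio 1.02) and downward in endothelial-like cells (-1.38). These values rest on 8 and 7 cells of IR with a UMI. The sign was not stable in neutrophil-like cells, where it was 0.18 in clusters that both libraries share, nor in mural-like cells, where it was 0.07 with each cell thinned to 1000 UMIs. It also turned in macrophage-like cells (0.13 in the shared clusters) and in B cell-like cells (0.05 with thinned cells). In NK cell-like cells it was -0.18 with classes from each cell's own markers. The dendritic-like value was -1.0 with at most 10% mitochondrial UMIs.

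Fkbp5 encodes a co-chaperone that binds the receptor complex, lowers its affinity for hormone and is itself induced by the receptor. In sham hearts its level was highest in fibroblast-like cells, at 29.7 CPM (95% interval 27.3 to 32.2), followed by NK cell-like cells at 23.6 CPM (15.7 to 34.2), whose interval overlapped it. T cell-like, macrophage-like, neutrophil-like and monocyte-like cells lay at 12.4, 11.9, 11.6 and 10.9 CPM with overlapping intervals. Mural-like cells followed at 9.14 CPM, B cell-like cells at 5.72 CPM and endothelial-like cells at 5.65 CPM. In dendritic-like cells only 1 UMI was counted in sham.

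In IR hearts the order was different. Macrophage-like cells had the highest Fkbp5 level, at 144 CPM (137 to 151), 12.1-fold above sham (10.5 to 14.0). Mural-like cells reached 90.3 CPM, 9.87-fold above sham (6.18 to 16.5). Endothelial-like cells reached 75.3 CPM, 13.3-fold above sham (7.54 to 25.3). The intervals of the mural-like and endothelial-like levels overlapped each other but not that of macrophage-like cells.

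Fibroblast-like cells had 70.0 CPM of Fkbp5 in IR, 2.36-fold above sham (2.14 to 2.59), the smallest ratio among the classes past 2-fold and under it (log2 ratio 0.87) with the study's limit of 2500 genes per cell. Dendritic-like cells had 67 UMIs in IR against the 1 in sham, and the ratio of 38.2 has an interval from 6.63 to 1532. The ratio was 3.23-fold in monocyte-like cells (35.3 CPM in IR), 3.66-fold in B cell-like cells (20.9 CPM) and 2.63-fold in neutrophil-like cells (30.5 CPM, interval of the ratio 1.20 to 7.21 on 6 UMIs in sham). The neutrophil-like log2 ratio of 1.39 was 0.56 as a mean of each cell's CPM and 0.76 with thinned cells, both under 2-fold. Fkbp5 was thus past 2-fold in stromal, vascular, myeloid and B cell-like classes, and the interval of its ratio in macrophage-like cells did not overlap that in fibroblast-like cells.

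The lymphoid classes other than B cell-like cells had smaller ratios. In T cell-like cells Fkbp5 was 12.4 CPM in sham and 22.8 CPM in IR, a log2 ratio of 0.88 (0.03 to 1.78) that did not reach 2-fold. That interval overlapped the one of B cell-like cells (1.13 to 2.66), and the value was 1.22 with at most 10% mitochondrial UMIs. In NK cell-like cells it was 23.6 and 21.2 CPM on 28 and 8 UMIs, a log2 ratio of -0.16 (-1.50 to 1.01), an interval wide enough to hold a 2-fold difference in either direction.

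**Figure D2:**
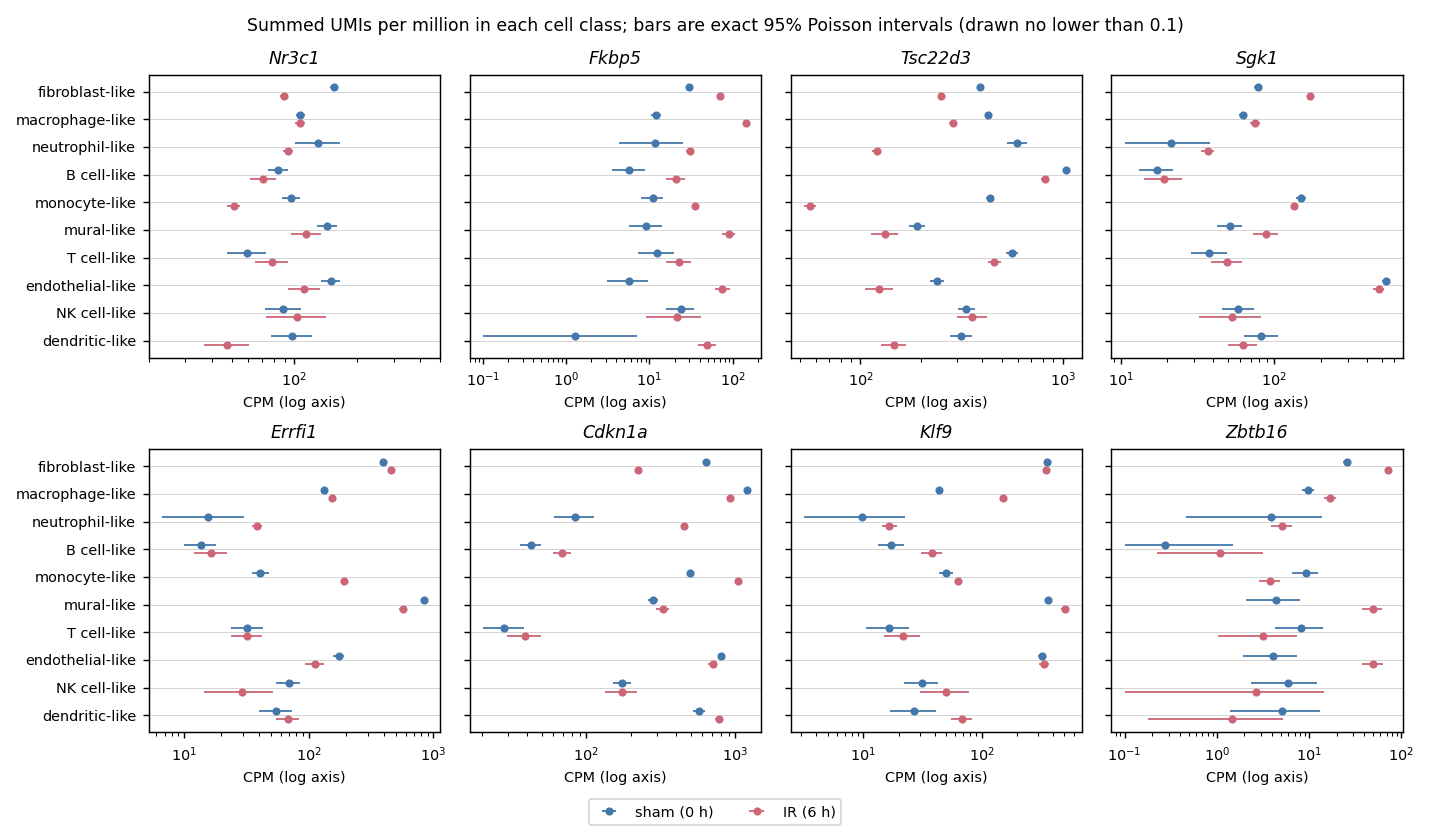
Level of each of the 8 genes in CPM on log axes (horizontal) in each cell class (vertical), in blue for sham and red for IR, with exact 95% Poisson intervals as bars, cut at the lower end of the axis where they reach further. Fkbp5 points lie to the right in IR in 9 classes, at 144 CPM against 11.9 CPM in macrophage-like cells. Tsc22d3 points lie to the left in every class but NK cell-like cells, at 56.1 CPM against 437 CPM in monocyte-like cells.

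Tsc22d3 encodes GILZ, a leucine-zipper protein that carries part of the anti-inflammatory action of the hormone by binding NF-κB and AP-1 components. Its sham level was highest in B cell-like cells, at 1036 CPM (1003 to 1069), then 596 CPM in neutrophil-like and 563 CPM in T cell-like cells, whose intervals overlapped. Monocyte-like cells followed at 437 CPM and macrophage-like cells at 425 CPM, again with overlapping intervals, and then fibroblast-like cells at 390 CPM. NK cell-like cells had 334 CPM, dendritic-like cells 316 CPM, endothelial-like cells 239 CPM and mural-like cells 190 CPM.

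In IR hearts Tsc22d3 was 56.1 CPM in monocyte-like cells, which fell from the fourth highest class to the lowest (7.80-fold below sham, log2 ratio -2.96, interval -3.08 to -2.85). Neutrophil-like cells had 120 CPM, 4.96-fold below sham (log2 ratio -2.31, -2.49 to -2.13). Dendritic-like cells had 146 CPM, 2.16-fold below sham (log2 ratio -1.11, -1.39 to -0.83). These were the 3 classes past 2-fold, and all are myeloid, though macrophage-like cells were not among them. With at most 10% mitochondrial UMIs endothelial-like cells were past 2-fold as well (-1.15). The dendritic-like value was under 2-fold as a mean of each cell's CPM (-0.92) and with thinned cells (-0.47).

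The differences were smaller in the other classes. The log2 ratio of Tsc22d3 was -0.95 in endothelial-like cells (124 CPM in IR), -0.64 in fibroblast-like cells (250 CPM), -0.57 in macrophage-like cells (285 CPM) and -0.53 in mural-like cells (132 CPM). B cell-like cells kept the highest level, 816 CPM with a log2 ratio of -0.34, and T cell-like cells had 459 CPM with a log2 ratio of -0.29. NK cell-like cells, with 357 CPM and a log2 ratio of 0.10 (-0.20 to 0.38), were the only class above zero.

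Among 5531 genes with enough UMIs in every class, the genes whose log2 ratios over the 10 classes lay closest to those of Tsc22d3 were 9930111J21Rik2, Il16 and Mndal, with root mean square differences of 0.35, 0.37 and 0.44 on the log2 scale. The closest to Fkbp5 were Mxd1, Mfsd4 and Cxcl1, at 1.32, 1.42 and 1.46. The log2 ratios of Fkbp5 also spread further, from -0.16 to 5.26, against -2.96 to 0.10 for Tsc22d3. The highest Fkbp5 ratio, in dendritic-like cells, rests on 1 UMI in sham. Since the differences were not scaled for spread, they do not show which gene had the closer neighbours.

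Sgk1 encodes a kinase that regulates ion channels and cell survival and is induced by both glucocorticoids and mineralocorticoids. It was most abundant in endothelial-like cells, at 530 CPM in sham (502 to 560) and 476 CPM in IR (437 to 516). Fibroblast-like cells were the only class past 2-fold, with 78.0 CPM in sham and 171 CPM in IR (2.19-fold, 2.07 to 2.33). Their log2 ratio of 1.13 was under 2-fold with at most 2500 genes per cell (0.34), with thinned cells (0.89) and as a mean of each cell's CPM (0.90). Mural-like cells had 51.4 and 88.0 CPM (1.71-fold, 1.32 to 2.23) and macrophage-like cells 62.2 and 75.0 CPM. In monocyte-like cells the levels were 149 and 135 CPM. The small negative ratios of monocyte- and endothelial-like cells turned positive under some alternatives, up to 0.19 and 0.27, and the log2 ratios over classes lay between -0.40 in dendritic-like cells and 1.13 in fibroblast-like cells.

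Promoter windows of RefSeq (GRCm38.p6, 250 bases before to 50 after a start) were present for 6 of the 8 genes, 15 windows in all. They were searched on both strands for the palindromic element to which the receptor binds, written AGAACANNNTGTTC or GAACANNNTGTTCT, and for its half-site AGAACA. The full element stood in 1 window of these genes, an Sgk1 start within the gene, and in 16 of all 32851 windows (0.0487%). The half-site stood in 4 of the 15 windows, 3 of Sgk1 and 1 of Tsc22d3, and in 19.0% of all windows. The Sgk1 stretch is shown because it holds the only full match, with the matching bases in capitals (chr10:21993677-21993739, plus strand):
Sgk1: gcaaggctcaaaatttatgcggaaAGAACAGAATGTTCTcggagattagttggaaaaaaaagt
The match starts 189 bases before that start site. It is a description of these letters, and the windows of Fkbp5, Klf9, Errfi1 and Cdkn1a held neither the element nor the half-site.

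Errfi1 encodes MIG6, a feedback inhibitor of the epidermal growth factor receptor. Its direction differed between classes. In monocyte-like cells it was 41.1 CPM in sham and 193 CPM in IR (4.69-fold, 4.02 to 5.50), and in neutrophil-like cells 15.5 and 38.6 CPM (2.49-fold, 1.26 to 5.81, on 8 UMIs in sham). The neutrophil-like log2 ratio of 1.32 was under 2-fold with at most 2500 genes per cell (0.46), as a mean of each cell's CPM (0.84), without cells of a second class (0.60) and with thinned cells (0.30). In NK cell-like cells it was 69.2 CPM in sham and 29.1 CPM in IR, on 82 and 11 UMIs (2.38-fold lower, log2 ratio -1.25, -2.31 to -0.34). That value was under 2-fold in 3 alternatives, at -0.93 with at most 10% mitochondrial UMIs, -0.92 with classes from each cell's own markers and -0.70 with thinned cells.

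Mural-like cells had the highest Errfi1 level, 848 CPM in sham and 575 CPM in IR (log2 ratio -0.56), and endothelial-like cells had 174 and 112 CPM (-0.63). The endothelial-like value turned to 0.74 when cells with markers of a second class were left out. Fibroblast-like cells had 394 and 455 CPM (0.21). Of the other growth factor feedback inhibitors, the Sprouty, Spred and dual-specificity phosphatase genes, 8 were listed. Spred1 was higher in 6 of 9 classes, Spry1 lower in 4 of 8, Dusp6 lower in 3 of 9 and Dusp4 higher in 2 of 3, so that this group was mixed too.

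Cdkn1a encodes p21, an inhibitor of cyclin-dependent kinases that p53 and the glucocorticoid receptor both induce. In neutrophil-like cells it was 83.2 CPM in sham and 451 CPM in IR (5.42-fold, 4.02 to 7.50), and in monocyte-like cells 496 and 1047 CPM (2.11-fold, 2.02 to 2.21). The neutrophil-like log2 ratio of 2.44 dropped to 0.62 with classes from each cell's own markers, and the monocyte-like 1.08 lay between 0.88 and 0.97 in 3 alternatives. In fibroblast-like cells it was 635 CPM in sham and 221 CPM in IR (2.88-fold lower, log2 ratio -1.53, -1.57 to -1.48). Fibroblast-like cells thus differed from both of these myeloid classes in direction.

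The highest Cdkn1a level in sham was in macrophage-like cells, 1191 CPM, which had 915 CPM in IR (log2 ratio -0.38). B cell-like cells had 42.2 and 68.8 CPM (0.71), which turned to -0.15 with at most 2500 genes per cell, -0.19 with at most 10% mitochondrial UMIs and -0.44 with classes from each cell's own markers. The levels in dendritic-like cells were 567 and 777 CPM (0.46), and those in endothelial-like cells 803 and 703 CPM (-0.19, or 0.22 with at most 2500 genes per cell). Of the 10 other p53 targets listed, Bbc3 was lower in 5 of 10 classes, Aen was higher in 4 of 10, Trp53inp1 was higher in 1 and lower in 3 of 10, and Phlda3 was lower in 2 of 8. In fibroblast-like cells, where Cdkn1a was lower, 1 of the 10 p53 targets was higher and 1 was lower, against 11.5% and 16.4% of all genes.

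Klf9 encodes a Krüppel-like transcription factor that the receptor induces directly and that also follows the daily rhythm of the hormone. In macrophage-like cells it was 43.8 CPM in sham and 151 CPM in IR (3.45-fold, 3.16 to 3.76). B cell-like cells had 17.1 and 37.8 CPM (2.21-fold, 1.60 to 3.06), and dendritic-like cells 26.9 and 68.1 CPM (2.53-fold, 1.56 to 4.27). The B cell-like log2 ratio of 1.14 was 0.75 with classes from each cell's own markers, and the dendritic-like 1.34 was 0.88 without cells of a second class. The log2 ratio was above zero in 9 classes and its interval in 5, and the signs in neutrophil-, T cell- and endothelial-like cells turned in at least 1 alternative.

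Stromal and vascular cells had the highest Klf9 levels and small differences. Fibroblast-like cells had 359 CPM in sham and 349 CPM in IR (log2 ratio -0.04, -0.09 to 0.00), endothelial-like cells 321 and 334 CPM (0.06), and mural-like cells 364 and 501 CPM (0.46, 0.31 to 0.61). Over all filtered cells together Klf9 was 179 CPM in sham and 178 CPM in IR. Fibroblast-like cells made up 30.7% of the filtered cells of sham and 20.7% of those of IR. By the same pooled measure Fkbp5 was 17.4 and 63.7 CPM and Tsc22d3 443 and 211 CPM.

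Zbtb16 encodes PLZF, a transcriptional repressor needed for innate-like lymphocytes and induced by glucocorticoids in stromal cells. It had enough UMIs in 6 classes. In mural-like cells it was 4.35 CPM in sham and 49.2 CPM in IR (11.3-fold, 5.78 to 24.7, on 10 and 66 UMIs), and in endothelial-like cells 4.04 and 49.6 CPM (12.3-fold, 6.24 to 26.9, on 10 and 60 UMIs). In fibroblast-like cells it was 25.7 and 71.7 CPM (2.79-fold, 2.52 to 3.08). The 3 classes past 2-fold upward were thus stromal and vascular.

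Macrophage-like cells had 9.76 and 16.9 CPM of Zbtb16 (1.73-fold, 1.40 to 2.14). In monocyte-like cells the level was 9.27 CPM in sham and 3.76 CPM in IR (log2 ratio -1.30, -1.91 to -0.68), under 2-fold with at most 2500 genes per cell (-0.35), classes from each cell's own markers (-0.73) and median-ratio scaling (-0.98), and in neutrophil-like cells 3.87 CPM on 2 UMIs and 5.08 CPM. B cell-like cells, taken as the class that should lack the transcript, had 1 UMI in sham and 3 in IR. With each cell thinned to 1000 UMIs, Zbtb16 was found in 0.262% of mural-like cells in sham (exact 95% interval 0.0318% to 0.944%, 763 cells) and 5.0% in IR (2.31% to 9.28%, 180 cells), and without thinning in 1.19% and 22.4%. The share in thinned B cell-like cells was 0 of 1123 and 0 of 717, with exact upper limits of 0.328% and 0.513%.

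Different clusters held a class in the 2 libraries. Fibroblast-like cells of sham were almost all in cluster 0 (3474 cells), while those of IR were in cluster 6 (1063 cells, led by Cxcl5, Ptx3 and Timp1), cluster 12 (567 cells, led by Serpina3n and Adamts5) and cluster 0 (78 cells). Macrophage-like cells were mainly in clusters 1 (1829 sham and 364 IR cells), 4 (1228 and 9) and 10 (32 and 623), with fewer in cluster 21, led by cell cycle genes (137 and 20), and cluster 25 (41 and 6). Monocyte-like cells were in clusters 11 (462 and 120) and 5 (40 and 1114), and neutrophil-like cells in clusters 17 (178 and 6), 7 (70 and 962) and 3 (1 and 1482). The other classes compared were single clusters, apart from mural-like cells, in which clusters 8 and 16 each held cells of both libraries. The ratios were therefore also taken over the clusters with at least 50 cells in each library. The classes that are single clusters have the same values there as before.

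Within these shared clusters Fkbp5 was still higher. Its log2 ratio was 1.52 (1.14 to 1.88) in fibroblast-like cluster 0, 4.39 (4.06 to 4.74) in macrophage-like cluster 1, where it rose from 9.47 to 199 CPM, and 2.21 (1.62 to 2.82) in monocyte-like cluster 11. In neutrophil-like cluster 7 it was 0 UMIs in sham and 143 in IR. Klf9 was above zero in 10 of 10 classes and past 2-fold in 4, with a log2 ratio of 2.06 (1.88 to 2.25) in cluster 1 and 1.0 (0.66 to 1.34) in cluster 11. In these counts the B cell-, T cell-, endothelial-, NK cell- and dendritic-like values repeat those of the whole class.

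The Zbtb16 log2 ratio in the shared clusters was 2.11 (1.77 to 2.44) in cluster 0 and 1.57 (1.17 to 1.97) in cluster 1. In monocyte-like cluster 11 it was 0.81 (-0.07 to 1.64) and so had the opposite sign to that of the whole class. For Tsc22d3 the difference was not seen in fibroblast-like cluster 0, with 391 CPM in sham and 406 CPM in IR (log2 ratio 0.05, -0.11 to 0.21). In macrophage-like cluster 1 it was higher in IR, with 351 and 461 CPM (0.39, 0.30 to 0.48).

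Tsc22d3 remained lower in monocyte-like cluster 11 (466 and 142 CPM, log2 ratio -1.72, -1.97 to -1.48) and in neutrophil-like cluster 7 (425 and 211 CPM, -1.01, -1.33 to -0.68). Among mural-like cells it was 253 and 251 CPM in cluster 8, led by the pericyte genes Vtn and Kcnj8, and 129 and 51.4 CPM in cluster 16, led by the smooth muscle genes Tagln and Acta2 (-1.33, -1.86 to -0.82). Over the shared clusters Tsc22d3 was below zero in 7 of 10 classes. Some other differences were smaller there too. In cluster 0 the log2 ratio was -0.59 (-0.74 to -0.43) for Cdkn1a and 0.49 (0.16 to 0.80) for Sgk1. It was 1.09 (0.45 to 1.81) for Cdkn1a in cluster 7 and 0.26 (-0.20 to 0.70) for Errfi1 in cluster 11. A larger one was Cdkn1a in mural-like cluster 8, at 58.1 CPM in sham and 232 CPM in IR (2.0, 1.56 to 2.45). In mural-like cluster 16 its log2 ratio was -0.35 (-0.56 to -0.15), and over the whole class 0.22. In macrophage-like cluster 1 Errfi1 was lower, at 156 CPM in sham and 73.5 CPM in IR (-1.08, -1.28 to -0.89).

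**Figure D3:**
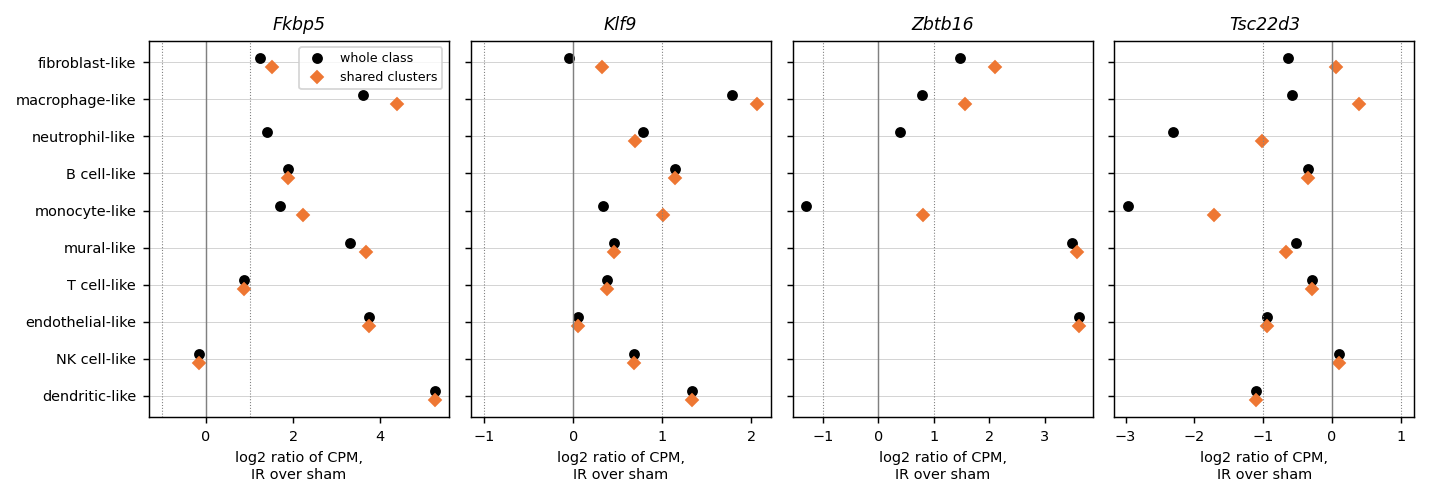
Log2 ratio of CPM in IR over sham (horizontal axis, dotted lines at 2-fold) for 4 of the genes in each class (vertical axis), over the whole class (black circles) and over its clusters with at least 50 cells in each library (orange diamonds, left out where sham had no UMI). Fkbp5 diamonds stay right of zero in the 8 classes shown other than NK cell-like cells, whereas Tsc22d3 moves from -0.64 to 0.05 in fibroblast-like cells and from -0.57 to 0.39 in macrophage-like cells.

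Within the IR library the genes could be compared between clusters of 1 class, where library and surgery are the same. The 2 largest IR clusters of a class were taken, a choice made after the clusters were seen, and since clusters are drawn from the same cells the differences are descriptions. In fibroblast-like cells Tsc22d3 was 73.7 CPM in the larger cluster 6 and 701 CPM in cluster 12. Zbtb16 was 20.3 and 203 CPM, Klf9 211 and 701 CPM, Fkbp5 55.1 and 107 CPM, and Nr3c1 66.1 and 147 CPM. All 5 were higher in cluster 12, with log2 ratios of 3.25, 3.33, 1.73, 0.96 and 1.16.

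The other 3 genes went the opposite way in fibroblast-like cells. Sgk1 was 210 CPM in cluster 6 and 76.3 CPM in cluster 12, Errfi1 552 and 209 CPM, and Cdkn1a 234 and 159 CPM. At 2-fold, 4 of the 8 genes were higher in cluster 12 and 2 were lower, against 23.9% and 9.93% of all genes. The summed level of 10 inflammatory genes that glucocorticoids repress was 16768 CPM in cluster 6 and 3258 CPM in cluster 12.

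The same 5 genes had intervals above zero for the smaller over the larger cluster in the 3 myeloid classes with more than 1 large cluster. In macrophage-like cells (cluster 1 against cluster 10, led by Hmox1 and Gdf15) Tsc22d3 was 461 against 194 CPM, Zbtb16 33.8 against 7.19 CPM, Fkbp5 199 against 117 CPM, Klf9 190 against 133 CPM and Nr3c1 121 against 100 CPM. The count past 2-fold was 2 higher and 1 lower, against 10.7% and 6.3% of all genes. Errfi1 was the lower gene, with 73.5 against 204 CPM.

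In monocyte-like cells (cluster 11 against cluster 5) Tsc22d3 was 142 against 49.8 CPM, Zbtb16 17.6 against 2.73 CPM, Klf9 106 against 60.2 CPM and Fkbp5 52.7 against 34.1 CPM. Here 2 genes were higher and 1 lower at 2-fold, against 13.7% and 8.57%. In neutrophil-like cells (cluster 7 against cluster 3) Tsc22d3 was 211 against 79.6 CPM, Zbtb16 10.4 against 2.73 CPM, Klf9 22.6 against 14.0 CPM and Fkbp5 38.0 against 27.2 CPM, and 2 genes were higher and 1 lower, against 29.6% and 4.65%. The median log2 ratio of all genes was 0.58 in this neutrophil-like pair, so that Fkbp5 (0.48) and Nr3c1 (0.27) lay below the median gene there, while it was 0.27 in the fibroblast-like, 0.14 in the macrophage-like and 0.13 in the monocyte-like pair. Cdkn1a was lower in each of these smaller clusters, with log2 ratios of -0.53, -0.17 and -1.51 in macrophage-, monocyte- and neutrophil-like cells.

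The summed inflammatory genes were lower in the smaller cluster of each pair as well, at 7745 against 26435 CPM in macrophage-like cells, 27115 against 35057 CPM in monocyte-like cells and 41650 against 86581 CPM in neutrophil-like cells. Neutrophil marker genes summed to 3644 against 1863 CPM in the fibroblast-like pair, 527 against 2877 CPM in the macrophage-like pair and 17670 against 4519 CPM in the monocyte-like pair. Their part in the differences was not tested. In mural-like cells the smooth muscle cluster 16 had 51.4 CPM of Tsc22d3 and the larger pericyte cluster 8 had 251 CPM. Fkbp5 was 65.2 and 127 CPM there and Zbtb16 28.8 and 79.3 CPM. Nr3c1 was 102 and 133 CPM, Klf9 503 and 500 CPM and Cdkn1a 387 and 232 CPM. The inflammatory genes summed to 2965 CPM in cluster 16 and 5934 CPM in cluster 8. In this pair they were thus lower in the same cluster as Tsc22d3, Fkbp5 and Zbtb16, unlike in the other pairs. The median log2 ratio of all genes, cluster 16 over cluster 8, was -0.40.

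**Figure D4:**
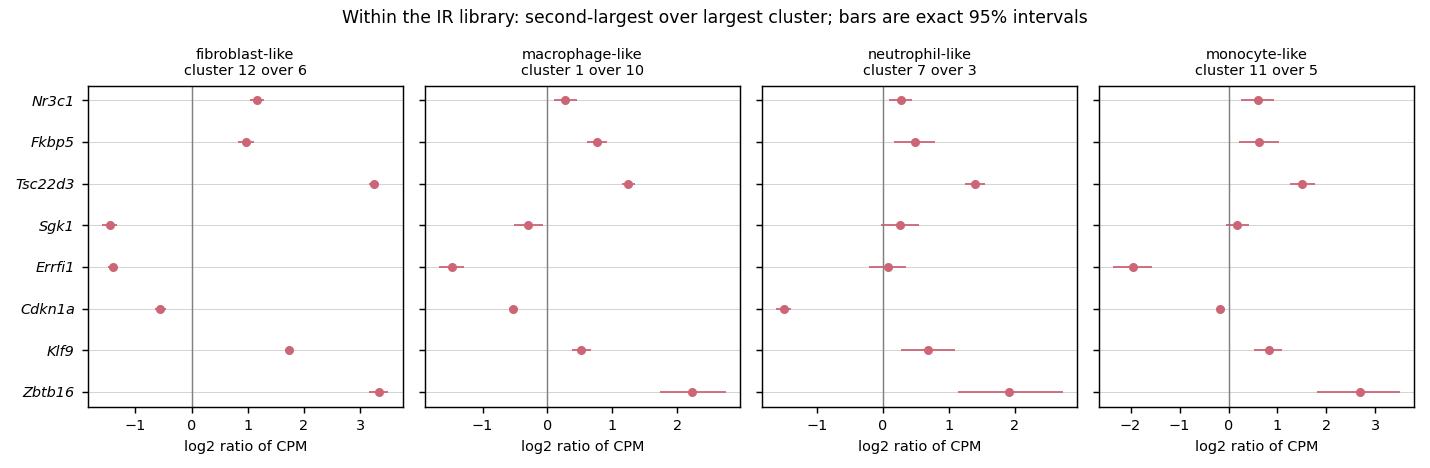
Log2 ratio of CPM between 2 clusters of the same class within the IR library (horizontal axis), the second-largest over the largest, for the 8 genes (vertical axis) with exact 95% intervals as bars. Nr3c1, Fkbp5, Tsc22d3, Klf9 and Zbtb16 lie right of zero in the 4 classes drawn and Cdkn1a lies left of it, with Tsc22d3 at 3.25 in fibroblast-like cells and 1.25 in macrophage-like cells. Mural-like cells also had a pair of clusters but are not drawn. There the log2 ratio was -0.39 for Nr3c1, -0.97 for Fkbp5, -2.29 for Tsc22d3, 0.01 for Klf9, -1.46 for Zbtb16 and 0.74 for Cdkn1a.

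Of 16 further genes known to be induced by glucocorticoids, 14 had enough UMIs in at least 1 class. Endothelial-like cells had 7 of 14 higher and 1 lower, against 6.48% and 11.5% of all genes. Fibroblast-like cells had 6 of 13 higher and 1 lower, against 11.5% and 16.4%. For mural-like cells the counts were 6 of 12 higher and 0 lower, against 7.4% and 9.53%. T cell-like cells had 6 of 9 higher and 0 lower, against 6.11% and 3.89%. NK cell-like cells had the fewest, with 2 of 9 higher against 11.9% of all genes. The median log2 ratio of these genes lay between 0.11 in dendritic-like cells and 1.19 in T cell-like cells.

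Mt2, a metallothionein that binds zinc and also answers to metals and oxidants, was past 2-fold in 9 of 10 classes, with 351 CPM in sham and 6136 CPM in IR in fibroblast-like cells (17.5-fold). Il1r2, the decoy receptor for interleukin-1, was higher in 9 of 10 classes, and Angptl4, an inhibitor of lipoprotein lipase that hypoxia also induces, in 6 of 7. Nfkbia, the inhibitor of NF-κB that NF-κB itself induces, was higher in 6 of 10 classes, and Mt1 in 6 of 10.

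Per1, a clock gene with a well-known receptor element, was past 2-fold in 0 of 10 classes, with a median log2 ratio of 0.08 and 68.7 and 69.3 CPM in macrophage-like cells. Dusp1, a phosphatase that switches off MAP kinases, was higher in 0 of 10 classes and lower in 1, fibroblast-like cells (log2 ratio -1.16). Chosen after their values were seen, Cd163 and Bcl6 were each lower in 3 classes and higher in 1, of 6 and 10 measured. Sult1a1 was higher in 2 and lower in 1 of 7 classes and Ddit4 higher in 3 of 10.

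**Figure D5:**
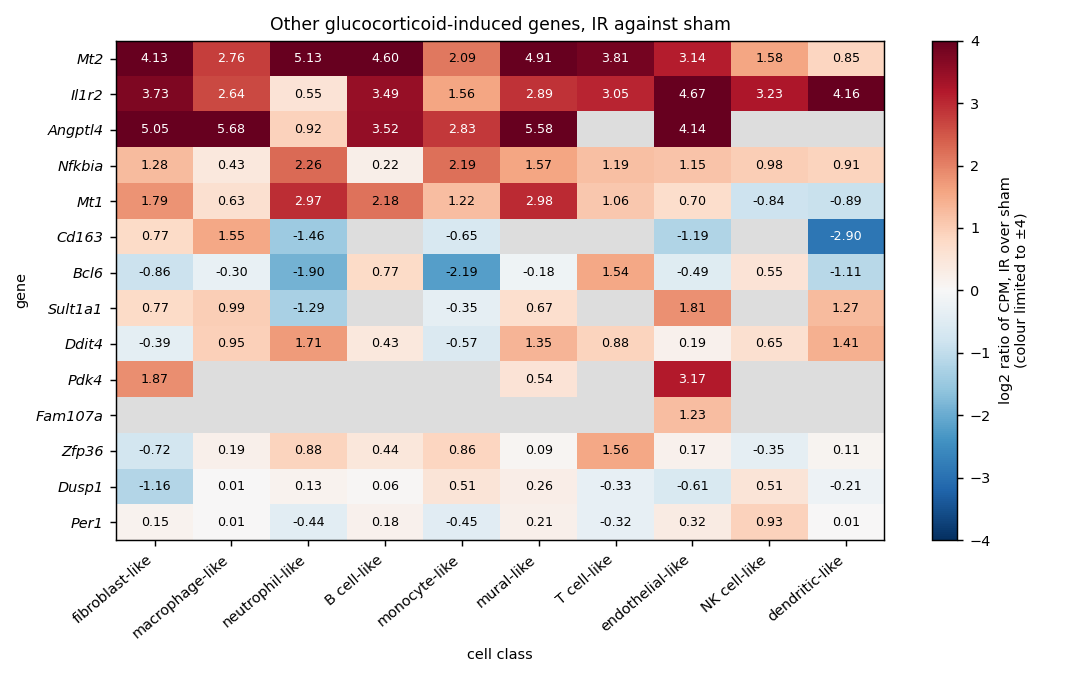
Log2 ratio of CPM in IR over sham for 14 further glucocorticoid-induced genes (vertical axis) in each cell class (horizontal axis), grey where under 20 UMIs were counted and a lower bound at 3 UMIs where sham had none, as for Mt2 and Angptl4 in neutrophil-like cells. Mt2, Il1r2 and Angptl4 are red across classes, while Per1 and Dusp1 stay pale, at medians of 0.08 and 0.03.

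Neutrophil markers were also counted in the other 9 classes, at a higher summed level in IR in 8 of them and at a lower one in monocyte-like cells (7845 CPM in sham and 5424 CPM in IR). Il1r2 was 1096 CPM in neutrophil-like cells of sham and 1607 CPM in those of IR, far above the 4.44 and 113 CPM of endothelial-like cells. The 8 neutrophil markers summed to 601 CPM in endothelial-like cells of sham and 6922 CPM in those of IR, to 949 and 6646 CPM in NK cell-like cells and to 259 and 1974 CPM in macrophage-like cells. The level of Fkbp5 in neutrophil-like cells of IR, 30.5 CPM, was below that in macrophage-, mural-, endothelial-, fibroblast-, dendritic- and monocyte-like cells of the same library. Leaving out cells with markers of a second class gave 20 pairs higher and 7 lower.

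Among 14 genes of receptor handling, some of the chaperone complex were lower in IR and others were not. Fkbp4, another co-chaperone of the receptor complex, was lower in 6 of 10 classes and below zero in 10. In mural-like cells it was 202 CPM in sham and 43.3 CPM in IR. Stip1, which joins HSP70 to HSP90, was lower in 6 of 10 and Hsp90ab1, a cytosolic HSP90, in 4 of 10. Named after their values were seen, Hspa8 was lower in 1 of 10 classes, and Hsp90aa1 and Ptges3 were past 2-fold in 0 of 10, with median log2 ratios of 0.08 and -0.16. Ncoa1, a receptor coactivator, was higher in 1 class and lower in 2.

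Hsd11b1, the enzyme that regenerates active hormone inside cells, was 351 CPM in sham and 173 CPM in IR in fibroblast-like cells (log2 ratio -1.02) and lower in 2 of 9 classes. The mineralocorticoid receptor gene Nr3c2, with enough UMIs in 2 classes, was lower in fibroblast-like cells, at 3.43 and 0.83 CPM (log2 ratio -2.04). None of these handling genes was past 2-fold upward in more than 1 class.

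Of 10 inflammatory genes that glucocorticoids repress, 0 were lower in any class, and from 5 of 8 in macrophage-like cells to 9 of 9 in endothelial-like cells were higher. The shares of all genes that were higher were 10.1% in macrophage-like and 6.48% in endothelial-like cells. Ptgs2, the inducible cyclooxygenase, was higher in 10 of 10 classes, the chemokines Ccl2 and Cxcl2 in 9 of 10 each, and Il1b in 8 of 10. Summed neutrophil markers were higher in IR too, at 118 and 1141 CPM in B cell-like and 601 and 6922 CPM in endothelial-like cells. They were lower in monocyte-like cells, at 7845 and 5424 CPM. Their part in the inflammatory genes was not tested. In the monocyte-like class, where Tsc22d3 was lowest, Ptgs2 was 53.7 CPM in sham and 1534 CPM in IR. Genes that tissue digestion and acute stress raise were divided, with the heat-shock genes Hspa1a higher in 9 and Hspa1b higher in 7 of 10 classes, Ier3 higher in 6, Egr1 lower in 5 and higher in 1, and others such as Fos lower in 5. Their part in the differences of the 8 genes was not tested.

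In the genome (GRCm38, GENCODE M21) the 8 genes are protein-coding and lie apart, except that Fkbp5 (chr17:28399094-28517527, minus strand) and Cdkn1a (chr17:29090976-29100727, plus strand) are on the same chromosome. Tsc22d3 lies at chrX:140539528-140600659 on the minus strand and Klf9 at chr19:23141226-23168134 on the plus strand. Sgk1 lies at chr10:21882184-21999903 on the plus strand, Errfi1 at chr4:150853919-150868892 on the plus strand and Zbtb16 at chr9:48654297-48836222 on the minus strand. Nr3c1 lies at chr18:39410545-39519421 on the minus strand.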

How the data were processed

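The authors sequenced 10× Genomics Single Cell 3′ v2 libraries, used Cell Ranger with the mm10 genome, and deposited UMI counts for each gene in each barcode as whole numbers that are not scaled. The matrix headers name Cell Ranger 3.1.0, whereas the reporting summary names another version. Gene symbols and cell barcodes came with the deposited files. No barcode names its sample, so each condition was 1 library, no test was made and no p-value computed. Differences then cover counting error and not the spread between animals.

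A cell was kept with 200 or more genes and no more than 30% mitochondrial UMIs, and a gene with 5 or more cells. The upper limit of 2500 genes in the study's methods was an alternative, since it kept 9777 sham and 4880 IR cells and removed 86.4% of fibroblast-like cells in IR against 15.5% in sham. The counts of each cell were brought to a total of 10000 and log-transformed, and 2000 variable genes without the 8 genes, the gene lists and mitochondrial genes were regressed on UMIs and clipped at 10. Then 30 principal components, 30 neighbors and the Leiden algorithm at resolution 0.8 gave 27 clusters, of which 22 were named from 98 markers (3 missing from the matrices). A name needed a score of at least 0.5, 3 markers and a gap of 1 to the next class, limits set after the clusters were seen. Unnamed clusters held 581 and 238 cells.

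Doublets were not removed. In an alternative, 1519 sham and 1771 IR cells with markers of a second class were left out. Where a library had 0 UMIs, 3 stood in for them as a bound. Ratio intervals are exact (Clopper–Pearson on the split of UMIs), level intervals exact Poisson. They were tested on simulated counts. Scripts ran in Python 3.11.15. Clustering used igraph 0.11.9, leidenalg 0.10.2 and scikit-learn 1.9.0, intervals scipy 1.17.1, tables pandas 2.3.3 with numpy 2.4.6, and plots matplotlib 3.10.9.

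The 8 genes and the gene lists were chosen with earlier results of these data known. Named were all 8 genes in every class, up to 4 genes of each list with the most classes past 2-fold, Per1, Mt1, Mt2, Dusp1, Il1r2, Hsd11b1 and Nr3c2, and the 3 genes closest to Tsc22d3, Fkbp5 and Zbtb16 (none for Zbtb16, which was not measured in every class). Fos, Cd163, Bcl6, Sult1a1, Ddit4, Hspa8, Hsp90aa1 and Ptges3 were named after their values were seen. Cebpd and H6pdh had no row under these symbols, and Hif3a and Hsd11b2 too few UMIs.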

Additional observations from a re-analysis of the deposited data

Results flagged for a closer look

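Of the 8 genes, 3 were past 2-fold in opposite directions in different classes. Errfi1 had a log2 ratio of 2.23 in monocyte-like cells and -1.25 in NK cell-like cells. Cdkn1a had a log2 ratio of 2.44 in neutrophil-like cells and -1.53 in fibroblast-like cells. Zbtb16 had a log2 ratio of 3.62 in endothelial-like cells and -1.30 in monocyte-like cells. With 1 library for each condition, the difference between classes was not tested. The Errfi1 value in NK cell-like cells rests on 11 UMIs in IR, and the monocyte-like value for Errfi1 was 0.26 (-0.20 to 0.70) within cluster 11, which both libraries share.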

How the results depend on the processing

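The counts of 19 pairs higher and 7 lower at 2-fold lay between 14 and 20 and between 5 and 8 under the 10 alternatives that kept this threshold. The shares over all genes lay between 8.33% and 10.5% higher and between 8.02% and 14.5% lower in these alternatives. With a threshold of 1.5-fold, 26 pairs were higher and 12 lower, which the lower bar itself brings. Over all genes 18.7% of pairs were higher and 22.9% lower at that threshold. In the clusters with at least 50 cells in each library the log2 ratio of Zbtb16 in monocyte-like cells was 0.81 and so opposite to that of the class; there 18 pairs were higher and 6 lower. Fkbp5 was above zero in the 9 classes other than NK cell-like cells under each alternative that could be run (0.56 to 5.75), and between -0.30 and 0.07 in NK cell-like cells. Tsc22d3 in mural-like cells was -0.53, 0.11 with at most 2500 genes per cell, 0.24 with cells thinned to 1000 UMIs and 0.01 as a mean of each cell's CPM; the cause was not tested. The sign was kept in 73 of 76 pairs under scaling by the median ratio, in 67 of 76 in the shared clusters, in 61 of 69 with at most 2500 genes and in 53 of 61 with thinned cells. B cell-, T cell-, endothelial-, NK cell- and dendritic-like cells are single clusters, so their sign could not change in the shared clusters. Dendritic-like cells were too few with at most 2500 genes and with classes from each cell's own marker UMIs. No paired analysis was possible because the barcodes name no sample. Classes with few UMIs in 1 library, such as neutrophil-like cells of sham and NK cell-like cells of IR, limit what can be seen.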

Other observations

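Clock genes, several of which glucocorticoids reset, differed between the libraries as well, and time of day cannot be told apart from surgery. Nr1d2 and Nr1d1, which encode the REV-ERB repressors, were higher in IR in 6 of 9 and 5 of 6 classes. Cry1, a repressor of the core clock, was higher in 4 and lower in 2 of 9 classes, and Ciart was higher in 2 and lower in 2 of 5. Per1 passed 2-fold in 0 of 10 classes. In macrophage-like cells 4 of 12 clock genes were higher and 0 lower, beside Klf9 at a log2 ratio of 1.78, whereas in fibroblast-like cells 5 of 13 were higher and 4 lower, beside Klf9 at -0.04. The shares of all genes were 10.1% higher and 8.53% lower in macrophage-like cells, and 11.5% and 16.4% in fibroblast-like cells.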
